A study of Homo sapiens with 18 samples.

Results

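The 10 genes described here encode the first steps of signalling from the B-cell receptor: CD79A, CD79B, BLNK, SYK, BTK, LYN, BLK, PLCG2, BANK1 and VAV1. They were chosen by name, each through the brightest of its probe sets that carry 1 gene symbol, and they are 10 of the 18417 genes measured that way. The B-cell receptor is a membrane immunoglobulin that sends its signal through the paired chains CD79A and CD79B. When antigen binds, SRC-family kinases such as LYN and BLK phosphorylate tyrosines in the tails of these chains, SYK docks there, and the adaptor BLNK brings BTK and the phospholipase PLCG2 together, which leads to calcium release. Classical Hodgkin lymphoma derives from B cells that have lost much of this equipment, whereas Burkitt lymphoma cells typically keep it.

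Total RNA from human lymphoma cell lines was measured on 18 arrays in 6 groups of 3. Raji and Namalwa, both from Burkitt lymphoma, had no treatment. L428 is a classical Hodgkin lymphoma line, and its derivative L428-PAX5 expresses PAX5, which holds cells in the B lineage, once mifepristone is added. The groups L428-PAX5+M and L428+M had 0.25 nM mifepristone in a treatment of 5 days. In L428-PAX5+MAT and L428+MAT, mifepristone came first for 2 days, 3 µM 5-aza-2'-deoxycytidine (5-aza-dC, an inhibitor of DNA methylation) followed for 3 days, and 640 nM trichostatin A (TSA, which inhibits histone deacetylases) was present in the last 24 h. All 4 L428 groups thus had mifepristone and Raji and Namalwa had none, so cell line and mifepristone cannot be told apart between them. HEPES was in the L428-PAX5 medium alone, and uninduced L428-PAX5 was not analysed here, which leaves PAX5, the derived line and the medium confounded: between L428-PAX5 and L428 they cannot be told apart.

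The deposited values are on a log2 scale, with array medians between 6.52 and 6.70. PAX5 itself read 12.84, 12.85 and 12.67 in L428-PAX5+MAT and 12.70, 12.81 and 12.68 in L428-PAX5+M, against 7.08, 7.14 and 7.28 in L428+MAT and 8.64, 7.14 and 6.70 in L428+M. It read 10.97, 10.94 and 10.77 in Raji and 11.31, 11.07 and 10.85 in Namalwa. The 6 arrays labelled as PAX5-induced were therefore above every other array, and replicate 1 of L428+M was above the other L428 arrays without PAX5. All 5 measured B-cell markers were higher in Raji and Namalwa than in L428+M, and MS4A1, which encodes CD20, averaged 12.03 in Raji and 6.13 in Namalwa, against 4.55 in L428+M. All 6 Hodgkin-cell markers were lower in Raji and Namalwa than in L428+M, and none of 8 T-cell and NK-cell markers passed the test in that comparison. There, 18.7% of all genes were called higher and 16.7% lower. In bulk RNA, fewer expressing cells and less RNA per cell cannot be told apart.

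The upstream sequences of 4 members are shown because 5-aza-dC inhibits DNA methylation, which falls mainly on cytosines of CpG dinucleotides. Methylation was not measured here, and whether CpG number bears on the response was not tested. The sequences hold CpG in very different numbers, and for BTK and SYK the start with the most CpG is printed. Each is the 250 bases before an annotated start in RefSeq, assembly GRCh38.p14, read 5′ to 3′ on the strand of the gene, with every CpG in capitals.
CD79A: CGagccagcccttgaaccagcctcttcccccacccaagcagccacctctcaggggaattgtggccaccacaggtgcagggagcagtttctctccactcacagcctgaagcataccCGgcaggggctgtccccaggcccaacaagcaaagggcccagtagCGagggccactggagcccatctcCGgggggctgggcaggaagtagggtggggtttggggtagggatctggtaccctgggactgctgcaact
BLNK: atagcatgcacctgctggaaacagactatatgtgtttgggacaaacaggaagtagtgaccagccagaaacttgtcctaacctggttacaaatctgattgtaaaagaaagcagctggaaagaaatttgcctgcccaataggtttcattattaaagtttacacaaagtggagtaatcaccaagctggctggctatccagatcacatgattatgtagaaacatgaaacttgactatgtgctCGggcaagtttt
BTK, the second of 2 annotated starts: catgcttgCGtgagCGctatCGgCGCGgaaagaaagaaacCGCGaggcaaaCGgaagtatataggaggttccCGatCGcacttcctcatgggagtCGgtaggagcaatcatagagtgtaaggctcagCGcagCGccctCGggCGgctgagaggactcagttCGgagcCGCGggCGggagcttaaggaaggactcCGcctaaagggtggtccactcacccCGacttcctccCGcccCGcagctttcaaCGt
SYK, the second of 3 annotated starts: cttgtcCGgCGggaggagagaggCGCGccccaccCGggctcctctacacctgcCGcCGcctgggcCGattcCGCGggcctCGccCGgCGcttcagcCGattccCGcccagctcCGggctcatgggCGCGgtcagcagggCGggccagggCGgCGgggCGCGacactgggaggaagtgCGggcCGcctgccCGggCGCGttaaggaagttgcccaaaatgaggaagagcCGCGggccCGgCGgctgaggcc
The CD79A window, chr19:41877029-41877278 on the plus strand, held 4 CpG, and 70.7% of 35116 windows of the same length held at least as many. BLNK's window, chr10:96271570-96271819 on the minus strand, held 1 CpG, a number that 93.9% of windows reached. The BTK window lies at chrX:101390797-101391046 on the minus strand and held 24 CpG, while the other BTK start held 2. For SYK, the window at chr9:90801569-90801818 on the plus strand held 32 CpG, a number that 9.52% of windows reached, and its other starts held 13 and 2. Among all windows the median was 11 CpG. Windows of 7 of the 10 members were read, 11 in all, and the windows of LYN, BLK and CD79B were not analysed here.

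The letters AGGAAGT, which hold the GGAA core bound by ETS factors, occurred on either strand in 6 of the 11 member windows and in 7.01% of all windows. The 6 were the windows of CD79A, BLNK and VAV1, the second starts of SYK and BTK and the first start of BANK1. CAGCTG, an E-box, occurred in the BLNK and PLCG2 windows, 2 of 11, and in 14% of all windows. ATGCAAAT, the octamer, was found in none of the 11 windows and in 1.63% of all windows. The motifs were chosen after these sequences had been read, so the share of member windows is a description and is not independent of that choice. No binding was measured.

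**Figure D1:**
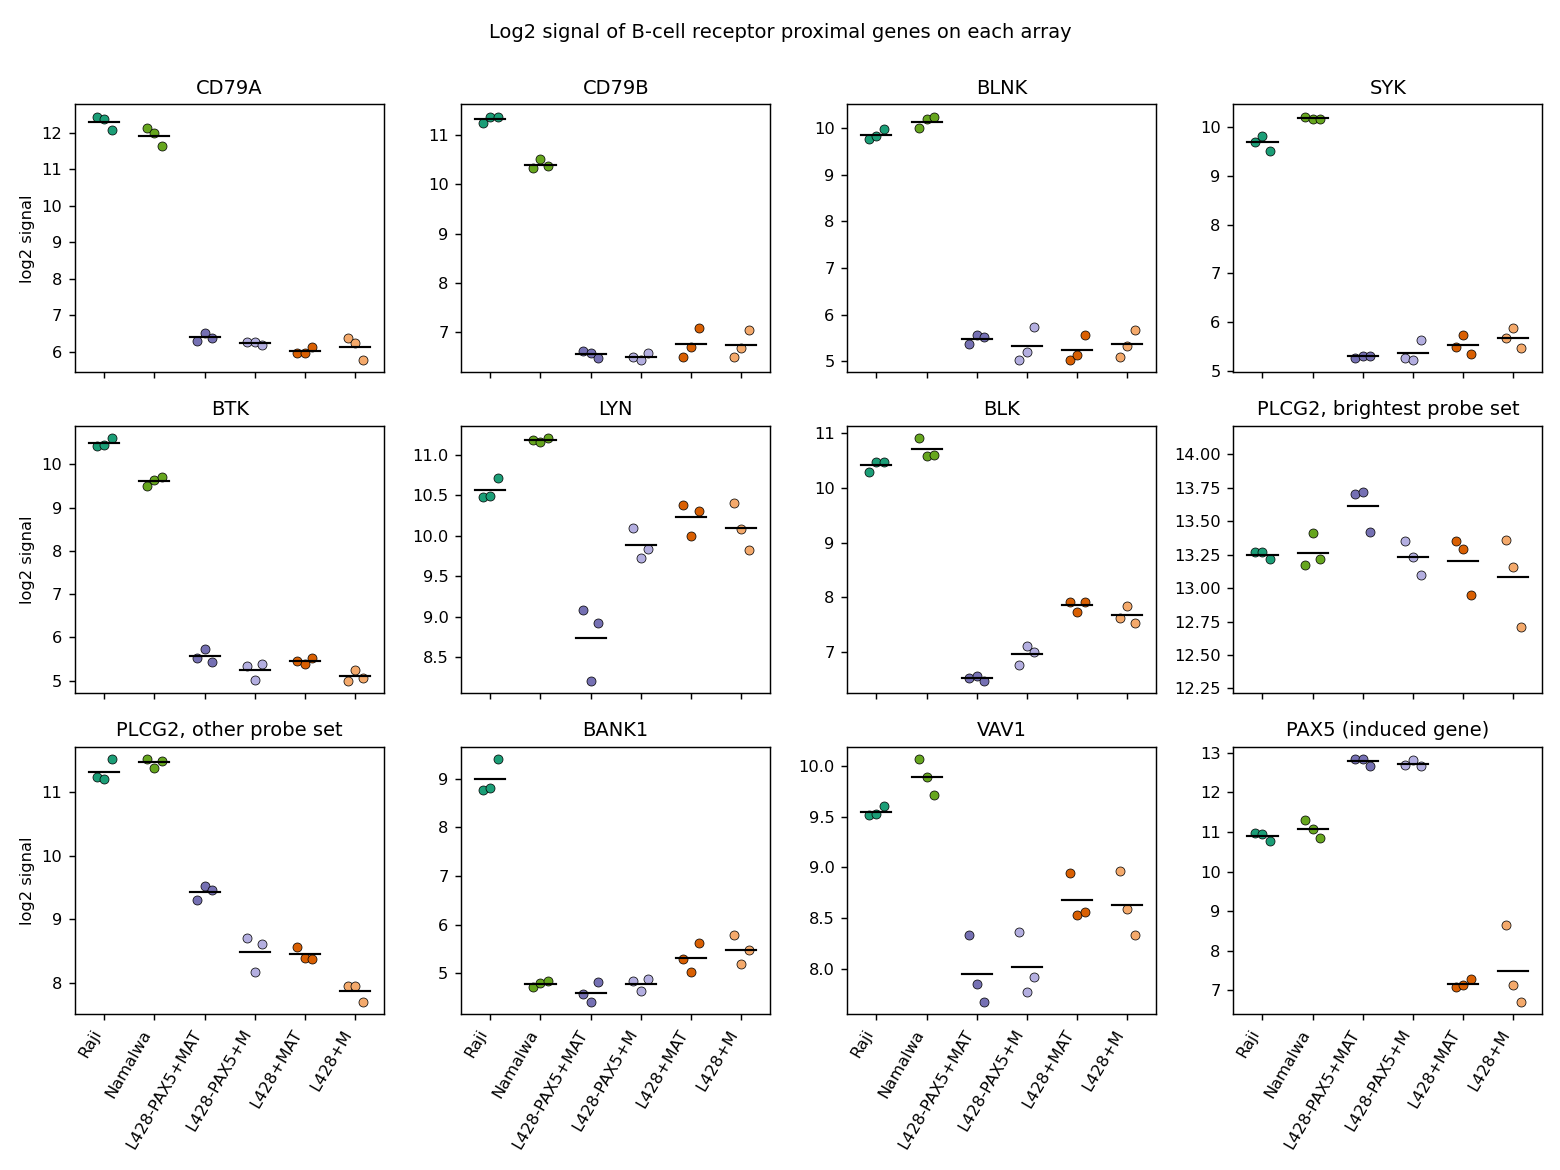
Deposited log2 value of each member on every array, 1 panel per gene with its own range, with the 6 groups along the horizontal axis, 3 points per group and a bar at the group mean, and with PLCG2 shown for both of its probe sets and PAX5 as the induced gene. In the panels of CD79A, CD79B, BLNK, SYK and BTK, the 6 Burkitt arrays stand far above the 12 L428 arrays, with 12.45 the highest and 5.78 the lowest value of CD79A.

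The comparison of Raji and Namalwa with L428+M asks how far the Hodgkin line differs from these Burkitt lymphoma lines. Of the 10 members, 9 were higher in the mean of Raji and Namalwa and none was lower, at an adjusted p below 0.05 in limma. Of all 18417 genes, 18.7% were called higher and 16.7% lower. The count does not hold for each line: with Raji alone LYN did not pass (0.46, adjusted p = 0.0907), and with Namalwa alone BANK1 was lower. The median log2 change of the members was 3.51, against 0.03 over all genes. The 5 largest log2 changes, between 4.12 and 5.98, were those of CD79A, CD79B, BLNK, SYK and BTK, and BLK had 2.89. LYN and VAV1 differed by less, and PLCG2 depended on the probe set. BANK1 went in opposite directions in the lines, by 3.51 in Raji and -0.70 in Namalwa (adjusted p = 0.00774 in limma).

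CD79A, the chain that starts the signal with its partner CD79B, is measured by probe set 8029136. It read 12.45, 12.38 and 12.07 in Raji and 12.14, 12.01 and 11.64 in Namalwa on the log2 scale. Log2 values were 6.30, 6.53 and 6.39 in L428-PAX5+MAT, 6.26, 6.26 and 6.18 in L428-PAX5+M, 5.96, 5.96 and 6.13 in L428+MAT and 6.37, 6.24 and 5.78 in L428+M. The lowest Burkitt array was thus far above the highest L428 array, and the 4 L428 groups lay within 1 log2 unit of each other. In limma, the log2 change of Raji and Namalwa against L428+M was 5.98 ± 0.14 (SE), a 63.3-fold difference with an adjusted p of 2.23e-16, and it ranked 10 among the rises of all genes.

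CD79B, measured by probe set 8017511, read 11.24, 11.37 and 11.37 in Raji and 10.32, 10.51 and 10.36 in Namalwa. Its log2 values were 6.62, 6.58 and 6.48 in L428-PAX5+MAT, 6.49, 6.44 and 6.58 in L428-PAX5+M, 6.50, 6.70 and 7.08 in L428+MAT and 6.49, 6.69 and 7.04 in L428+M. Raji was above Namalwa without overlap, Namalwa was above every L428 array, and the 4 L428 groups overlapped. Against L428+M, the log2 change of Raji and Namalwa was 4.12 ± 0.13 (SE), or 17.4-fold, with an adjusted p of 1.01e-14 in limma.

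BLNK is the adaptor that links SYK to BTK and PLCG2. Its log2 values were 9.76, 9.82 and 9.98 in Raji and 9.99, 10.18 and 10.24 in Namalwa. In the L428 groups they were 5.36, 5.56 and 5.52 in L428-PAX5+MAT, 5.03, 5.19 and 5.73 in L428-PAX5+M, 5.03, 5.14 and 5.56 in L428+MAT and 5.10, 5.33 and 5.67 in L428+M. All L428 groups overlapped, and replicate 3 was the highest in L428-PAX5+M, L428+MAT and L428+M. Raji and Namalwa were higher than L428+M by 4.63 ± 0.16 log2 units (SE), or 24.7-fold, with an adjusted p of 2.64e-14 in limma.

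SYK, the kinase that binds the phosphorylated tails of CD79A and CD79B, read 9.70, 9.81 and 9.51 in Raji and 10.21, 10.17 and 10.17 in Namalwa. Log2 values of SYK were 5.26, 5.31 and 5.32 in L428-PAX5+MAT, 5.26, 5.23 and 5.64 in L428-PAX5+M, 5.49, 5.74 and 5.36 in L428+MAT and 5.67, 5.88 and 5.48 in L428+M. Burkitt and L428 arrays did not overlap, and L428-PAX5+MAT lay below all L428+M arrays. The log2 change of Raji and Namalwa against L428+M was 4.25 ± 0.13 (SE), or 19.1-fold, at an adjusted p of 2.95e-15 in limma.

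BTK, the TEC-family kinase that activates PLCG2 and whose loss causes X-linked agammaglobulinaemia, read 10.42, 10.44 and 10.62 in Raji and 9.50, 9.63 and 9.71 in Namalwa. Its log2 values were 5.53, 5.72 and 5.42 in L428-PAX5+MAT, 5.34, 5.01 and 5.38 in L428-PAX5+M, 5.46, 5.39 and 5.52 in L428+MAT and 4.99, 5.24 and 5.05 in L428+M. Both groups with 5-aza-dC and TSA lay above all L428+M arrays by less than 1 log2 unit, far below Namalwa. Against L428+M, Raji and Namalwa were higher by 4.96 ± 0.12 log2 units (SE), or 31.0-fold, with an adjusted p of 2.1e-16 in limma.

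LYN and BLK are the SRC-family kinases of the set, and LYN also starts inhibitory signals through receptors such as CD22. LYN read 10.48, 10.49 and 10.71 in Raji and 11.18, 11.16 and 11.21 in Namalwa. Its log2 values were 9.09, 8.21 and 8.93 in L428-PAX5+MAT, 10.10, 9.73 and 9.84 in L428-PAX5+M, 10.38, 10.00 and 10.31 in L428+MAT and 10.40, 10.08 and 9.83 in L428+M. L428-PAX5+MAT was below all other arrays, and the other L428 groups overlapped. Raji and Namalwa were above L428+M by a log2 change of 0.77 ± 0.17 (SE), with an adjusted p of 0.00123 in limma. With Raji alone the log2 change was 0.46 and the adjusted p 0.0907, and with Namalwa alone it was 1.08, so that call rests on Namalwa.

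BLK read 10.30, 10.47 and 10.48 in Raji and 10.92, 10.59 and 10.61 in Namalwa. Log2 values of BLK were 6.53, 6.56 and 6.47 in L428-PAX5+MAT, 6.76, 7.11 and 7.0 in L428-PAX5+M, 7.92, 7.73 and 7.92 in L428+MAT and 7.62, 7.85 and 7.54 in L428+M. The 4 L428 groups formed 3 levels, with L428+MAT and L428+M overlapping above L428-PAX5+M, and L428-PAX5+MAT below that. Raji and Namalwa exceeded L428+M by 2.89 ± 0.12 log2 units (SE), or 7.40-fold, with an adjusted p of 2.24e-13 in limma.

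PLCG2, the phospholipase that releases the calcium signal, has a pair of probe sets with 1 symbol, and they disagreed. The brighter one, 7997489, for which the annotation lists 1 accession, read 13.27, 13.27 and 13.22 in Raji, 13.17, 13.41 and 13.22 in Namalwa, 13.70, 13.72 and 13.42 in L428-PAX5+MAT, 13.35, 13.23 and 13.10 in L428-PAX5+M, 13.35, 13.29 and 12.95 in L428+MAT and 13.36, 13.16 and 12.71 in L428+M. The other, 7997453, for which 8 accessions are listed, read 11.23, 11.21 and 11.51 in Raji, 11.52, 11.38 and 11.49 in Namalwa, 9.31, 9.53 and 9.46 in L428-PAX5+MAT, 8.70, 8.18 and 8.61 in L428-PAX5+M, 8.57, 8.40 and 8.37 in L428+MAT and 7.95, 7.95 and 7.70 in L428+M. The first was nearly flat close to the top of the scale, where the highest value in the table was 14.64, and the other separated Burkitt from L428 arrays without overlap. In limma, Raji and Namalwa differed from L428+M by a log2 change of 0.18 (adjusted p = 0.382) with the first and by 3.53 ± 0.13 (SE, adjusted p = 5.15e-14) with the other. Across the 18 arrays the Pearson correlation of both probe sets was 0.207, and over the 12 L428 arrays it was 0.775. Which of them follows the PLCG2 transcript better was not tested, and both are given below.

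BANK1, a scaffold that binds LYN and calcium channels in B cells, separated the Burkitt lines from each other. It read 8.76, 8.82 and 9.41 in Raji and 4.73, 4.80 and 4.85 in Namalwa. The log2 values of BANK1 were 4.58, 4.41 and 4.82 in L428-PAX5+MAT, 4.85, 4.63 and 4.89 in L428-PAX5+M, 5.30, 5.03 and 5.63 in L428+MAT and 5.78, 5.20 and 5.49 in L428+M. Namalwa overlapped with both L428-PAX5 groups and lay below L428+MAT and L428+M. The mean of both Burkitt lines was above L428+M by 1.41 ± 0.17 log2 units (SE, adjusted p = 1.18e-06, limma), but taken alone Raji differed by 3.51 and Namalwa by -0.70 with an adjusted p of 0.00774, so the direction holds for Raji and turns for Namalwa.

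VAV1, an exchange factor for RAC that works downstream of SYK in blood cells, read 9.52, 9.53 and 9.60 in Raji and 10.07, 9.89 and 9.71 in Namalwa. Its log2 values were 8.33, 7.85 and 7.67 in L428-PAX5+MAT, 8.36, 7.77 and 7.92 in L428-PAX5+M, 8.94, 8.53 and 8.56 in L428+MAT and 8.96, 8.59 and 8.33 in L428+M. All Burkitt arrays were above all L428 arrays, and replicate 1 was the highest in each L428 group. Raji and Namalwa were above L428+M by 1.09 ± 0.17 log2 units (SE), or 2.13-fold, with an adjusted p of 3.46e-05 in limma.

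Against the other L428 groups, the mean of both Burkitt lines was higher for the same 9 members. Against L428-PAX5+M, where 17.6% of all genes were called higher and 19.5% lower, 9 members were higher and none lower, with a median log2 change of 3.98. Against L428+MAT, with 22.3% and 19.8% of genes called, the count was 9 and 0. Against L428-PAX5+MAT, where 26.5% of genes were called higher and 23.1% lower, 9 were higher and PLCG2 was lower by its brighter probe set, with a log2 change of -0.36 and an adjusted p of 0.0404 in limma. Its other probe set was higher there by 1.96 ± 0.13 (SE), and the call of the brighter one held in 2 of 9 fits with 1 array left out, those without replicate 2 of Namalwa or replicate 3 of L428-PAX5+MAT. Taken alone, Namalwa did not have BANK1 higher: its log2 change was 0.00 against L428-PAX5+M (adjusted p = 0.993), -0.52 against L428+MAT (adjusted p = 0.0379) and 0.19 against L428-PAX5+MAT (adjusted p = 0.463), all in limma. Raji alone had LYN at 0.33 against L428+MAT, with an adjusted p of 0.203. These comparisons share the Burkitt arrays.

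**Figure D2:**
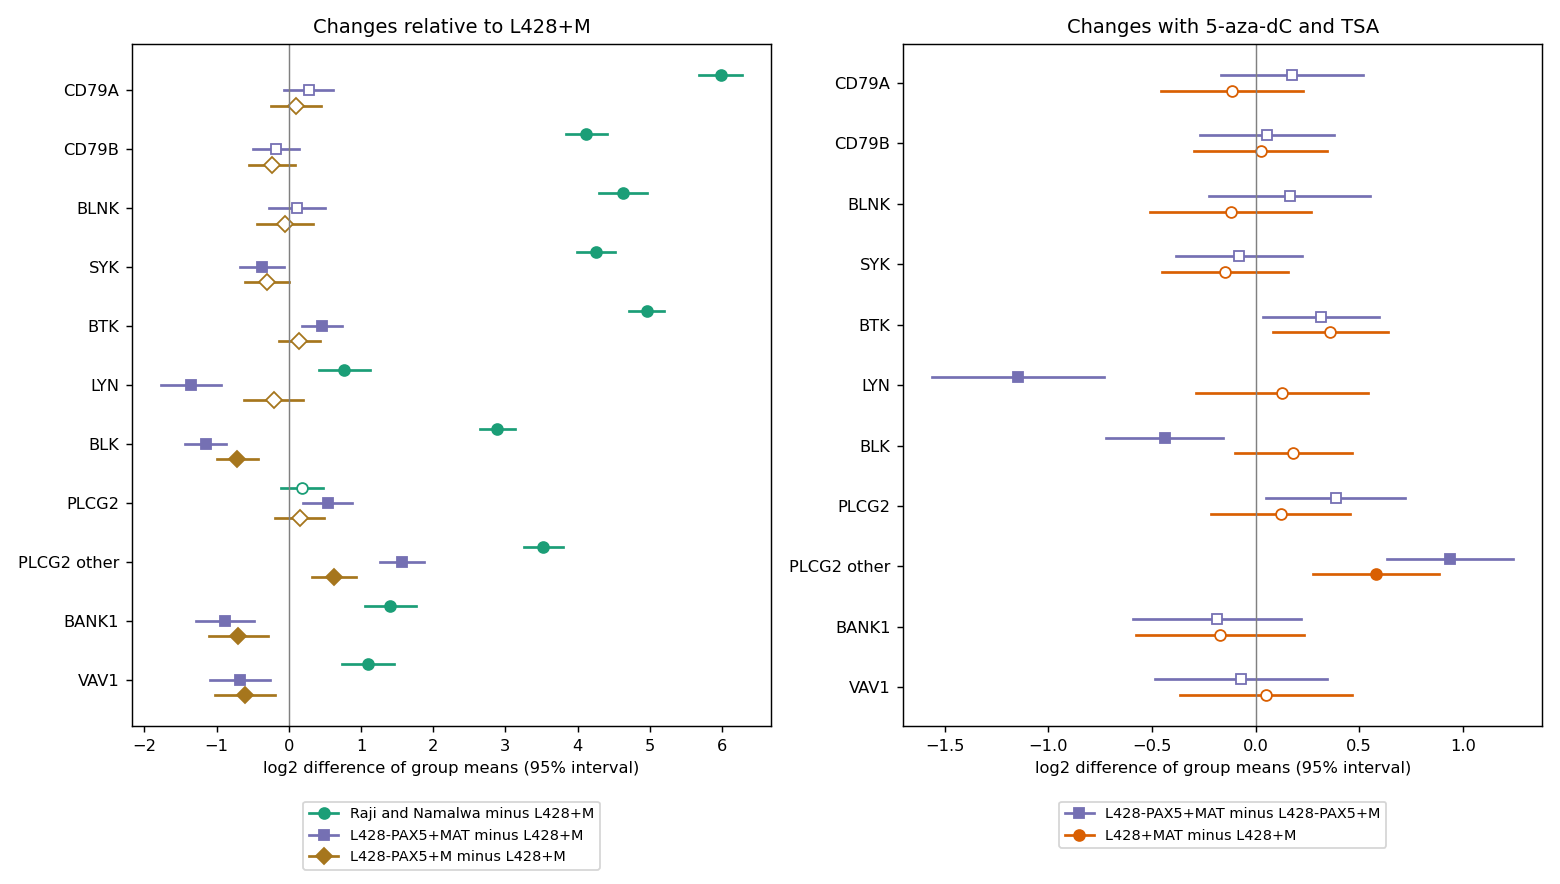
Log2 differences of group means with 95% intervals from limma, 1 row per member and an extra row for the other PLCG2 probe set, with filled symbols where the adjusted p is below 0.05. The left panel sets Raji and Namalwa, L428-PAX5+MAT and L428-PAX5+M against L428+M, where CD79A is at 5.98 in the Burkitt lines and at 0.27 and 0.10 in the PAX5 groups, and the right panel shows the effect of 5-aza-dC and TSA in L428-PAX5 and in L428, where LYN is at -1.15 and 0.13.

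The next comparison sets L428-PAX5+M, with PAX5 induced, against L428+M. PAX5, the derived line and the medium cannot be told apart in it. No member was higher and 3 were lower, where 9.72% of all genes were called higher and 6.55% lower by limma. BLK fell by 0.71 ± 0.13 on the log2 scale (SE, adjusted p = 0.000896), and its arrays did not overlap. BANK1 had a log2 change of -0.70 ± 0.19 (SE, adjusted p = 0.0165), also with no overlap, and VAV1 one of -0.61 ± 0.20 (SE, adjusted p = 0.0416), with overlap. BANK1 was dim in both groups: its values lay between 4.63 and 5.78, below 7.18, the median of all gene values. The BLK call held in 6 of 6 fits with 1 array left out. BANK1 lost its call without replicate 1 of L428+M (log2 change -0.55) or replicate 2 of L428-PAX5+M (-0.62), and VAV1 lost it without replicate 1 (-0.44) or 2 (-0.62) of L428+M or replicate 2 (-0.48) or 3 (-0.56) of L428-PAX5+M, and with only the compared groups in the fit.

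CD79A, CD79B, BLNK, SYK and BTK, the members with the largest gap to the Burkitt lines, did not pass in that comparison. CD79A, for which PAX5 is a known activator in B cells, had a log2 change of 0.10 with a 95% interval from -0.24 to 0.44, and that change was 1.64% of its log2 gap between the Burkitt lines and L428+M. The intervals were -0.56 to 0.09 for CD79B, -0.44 to 0.34 for BLNK, another known target of PAX5, -0.60 to 0.01 for SYK and -0.13 to 0.43 for BTK. LYN had a log2 change of -0.21, with an interval from -0.63 to 0.20. PLCG2 had 0.15 by its brighter probe set and 0.63 ± 0.15 (SE, adjusted p = 0.00504 in limma over all probe sets) by the other, which is 17.8% of that probe set's gap.

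Treatment of L428 with 5-aza-dC and TSA, without PAX5, moved no member past the threshold in limma, in a comparison where 4.21% of all genes were called higher and 0.635% lower. At an unadjusted p below 0.05 there was 1 member, BTK, with a log2 change of 0.36 and an interval from 0.08 to 0.64 (adjusted p = 0.164). For CD79A the interval of the change ran from -0.45 to 0.23, for CD79B from -0.30 to 0.35 and for BLNK from -0.51 to 0.27. The other PLCG2 probe set was higher in L428+MAT by 0.58 ± 0.15 (SE, adjusted p = 0.0244), and the brighter one had 0.12 (adjusted p = 0.812 in the same fit).

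In L428-PAX5, the same agents left no member higher and 2 lower, where 14.2% of all genes were called higher and 19.4% lower. LYN fell by 1.15 ± 0.20 on the log2 scale in L428-PAX5+MAT against L428-PAX5+M (SE, adjusted p = 0.000183 in limma), to 0.452 of its level. BLK fell by 0.44 ± 0.13 (SE, adjusted p = 0.0167). The LYN call held in 6 of 6 fits with 1 array left out, and the BLK call was lost without replicate 2 of L428-PAX5+M (-0.36) and with only the compared groups in the fit. PLCG2 had 0.39 by its brighter probe set (adjusted p = 0.0730), which passed with the replicate number as a block (adjusted p = 0.0174), and 0.94 ± 0.15 by the other (SE, adjusted p = 7.32e-05). BTK had 0.32 with an adjusted p of 0.0764, and it and PLCG2 passed when replicate 3 of L428-PAX5+MAT was left out.

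Markers of other cell types moved with the same treatment, where 14.2% of all genes were called higher and 19.4% lower in L428-PAX5. Of 8 fibroblast and epithelial markers, 4 were higher in L428-PAX5+MAT than in L428-PAX5+M and none lower, and the log2 of their summed signal was 10.59 to 10.75 in L428-PAX5+MAT, against 9.72 to 9.97 in L428-PAX5+M. In L428+MAT 2 of the 8 were higher, beside 4.21% of all genes, with summed signals of 10.36 to 10.45, against 9.64 to 9.85 in L428+M. Of 6 Hodgkin-cell markers, 4 were lower in L428-PAX5+MAT, with summed signals of 12.64 to 13.04, against 13.48 to 13.64 in L428-PAX5+M. Of 5 plasma-cell markers, 2 were lower and none higher there, with summed signals of 12 to 12.44 in L428-PAX5+MAT, against 12.87 to 13.06 in L428-PAX5+M. The part of these markers in the changes of LYN and BLK was not tested.

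The response of LYN and BLK to 5-aza-dC and TSA differed between the lines. The interaction, the change in L428-PAX5 minus the change in L428, was -1.27 ± 0.28 for LYN (SE, adjusted p = 0.00448 in limma) and -0.62 ± 0.19 for BLK (SE, adjusted p = 0.0320). No other member passed, so 2 of 10 were lower and none higher, where 5.64% of all genes were called higher and 10.6% lower. LYN passed in 12 of 12 fits with 1 array left out, with changes from -1.45 to -1.01. BLK passed in 5 of 12 and was lost with array medians subtracted (-0.59) or with only the 4 L428 groups in the fit. The omissions that lost it were replicates 1 and 3 of L428+M, 2 and 3 of L428-PAX5+M, 1 and 3 of L428+MAT and 1 of L428-PAX5+MAT, with interactions between -0.63 and -0.54.

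In L428-PAX5+MAT against L428+M, 2 members were higher and 5 lower, where 17.9% of all genes were called higher and 19.6% lower. Line, medium, PAX5 and the agents all differ between these groups. BTK was higher by 0.46 ± 0.13 log2 units (SE, adjusted p = 0.00962 in limma), which is 9.35% of its gap to the Burkitt lines. PLCG2 was higher by 0.54 ± 0.16 with the brighter probe set (adjusted p = 0.0123) and by 1.57 ± 0.15 with the other (SE, adjusted p = 1.57e-07), 44.4% of the other probe set's gap. LYN was lower by a log2 change of -1.36, BLK by -1.15, BANK1 by -0.89, VAV1 by -0.68 and SYK by -0.38. The SYK call (adjusted p = 0.0484) held in 1 of 6 fits with 1 array left out (that without replicate 3 of L428+M), the VAV1 call in 4 (lost without replicate 1 of L428+M, at -0.51, or replicate 3 of L428-PAX5+MAT, at -0.54) and the PLCG2 call in 5 (lost without replicate 3 of L428+M, at 0.35). With only the compared groups in the fit, LYN, BLK and BANK1 passed and the other 4 did not. CD79A had a log2 change of 0.27 with an interval from -0.07 to 0.61, 4.56% of its gap, CD79B -0.18 (-0.50 to 0.14) and BLNK 0.11 (-0.27 to 0.50).

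Setting L428-PAX5+MAT against L428+MAT compares the lines under the same agents. None of the members was higher and 4 were lower, where 14.3% of all genes were called higher and 17.7% lower. LYN had a log2 change of -1.48 ± 0.20 (SE, adjusted p = 1.2e-05), BLK -1.33 ± 0.13 (SE, adjusted p = 5.74e-07), BANK1 -0.71 ± 0.19 (SE, adjusted p = 0.00734) and VAV1 -0.73 ± 0.20 (SE, adjusted p = 0.00756), all in limma, and each held in 6 of 6 fits with 1 array left out. CD79A had 0.39 with an adjusted p of 0.0814, or 0.0346 with the replicate number as a block. PLCG2 had 0.42 by the brighter probe set, with an adjusted p of 0.0554, or 0.0113 with the block, and 0.99 ± 0.15 by the other (SE, adjusted p = 3.86e-05). Hodgkin-cell markers moved with it: 5 of 6 were lower and none higher, with summed signals of 12.64 to 13.04 in L428-PAX5+MAT, against 13.66 to 14.08 in L428+MAT. Of 5 plasma-cell markers 3 were lower and none higher, with 12 to 12.44 in L428-PAX5+MAT, against 12.83 to 13.01 in L428+MAT. The part of these markers in the 4 changes was not tested. This comparison and the one with L428+M share the L428-PAX5+MAT arrays.

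Between the Burkitt lines, 3 members were higher in Raji and 2 lower, where 7.74% of all genes were called higher and 11.5% lower. BANK1 was higher in Raji by 4.20 ± 0.19 log2 units (SE, adjusted p = 4.97e-12 in limma), or 18.4-fold. CD79B was higher by 0.93 ± 0.15 (SE, adjusted p = 0.000145) and BTK by 0.88 ± 0.13 (SE, adjusted p = 5.32e-05), each with no overlap. SYK was lower in Raji by a log2 change of -0.50 (adjusted p = 0.0174) and LYN by -0.62 (adjusted p = 0.0315). SYK lost its call without replicate 1 of Namalwa (-0.49) or replicate 3 of Raji (-0.42), LYN kept its call only without replicate 3 of Raji, and both lost it with array medians subtracted, which shifts this comparison by 0.10. CD79A was higher in Raji by 0.36 with an adjusted p of 0.147, and it passed with array medians subtracted (0.47).

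Among themselves, CD79A, CD79B, BLNK, SYK and BTK had pairwise Pearson correlations between 0.973 and 0.993 over the 18 arrays, which all carry the gap between the Burkitt and L428 lines. These members were grouped for the size of that gap, so the correlations are not independent of it. Within the 12 L428 arrays the same pairs ran from -0.555 (CD79A with CD79B) to 0.520 (CD79B with BLNK). These values describe arrays that share lines, treatments and replicate numbers.

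The genes most like each member were taken by Pearson correlation over the 18 arrays among 7407 genes whose group means span at least 1 log2 unit. These arrays carry the gap between the Burkitt and L428 lines, so genes that share a gap with a member score high. The ranking was not repeated within the L428 arrays, and it describes shared group levels only. CD79A was closest to POU2AF1, a B-cell coactivator (0.996), then CCDC69 and ST14. CD79B was closest to WDFY4 (0.997), then FCRLA and CYBB, and BTK to CD22, an inhibitory receptor of B cells (0.998), then WDFY4 and SEL1L3. BLNK was closest to SLAMF6 (0.998), then CD84 and MILR1, and SYK to SUSD3 (0.996), then DTX1 and CD84. The leading genes were WDR41, LARP1 and ANP32E for LYN (0.971 for the first), TSHZ1, PHLPP1 and ZHX2 for BLK (0.986), STS, FBXW11 and SEPTIN1 for VAV1 (0.971) and SPARCL1, SHROOM3 and BICC1 for BANK1 (0.988). The brighter PLCG2 probe set was closest to GCDH (0.917), TK1 and GGCX, and the other to EIF2AK3 (0.987), RBFOX2 and DNMBP.

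The wider pathway was followed through 4 lists of genes that work beside these members, with limma's adjusted p below 0.05 as the threshold. In Raji and Namalwa against L428+M, the lists stand beside 18.7% of all genes called higher and 16.7% lower. Among 6 measured coreceptor and surface genes, 5 were higher and none lower, with a median log2 change of 3.45, and with Namalwa alone 5 were higher and 1 lower. CD180, a surface receptor that tunes B-cell activation, was higher by 6.35 ± 0.11 (SE, adjusted p = 9.58e-18) and CD38 by 6.02 ± 0.12 (SE, adjusted p = 2.14e-17). Of 16 inhibitory receptors, phosphatases and ubiquitin ligases, 10 were higher and 2 lower, with a median of 1.02. CD22 was higher by 5.91 ± 0.14 and CD72, another inhibitory receptor, by 3.85 ± 0.11 (SE), while DOK1 had -0.89 and PECAM1 -0.66. With Namalwa alone 11 were higher and none lower, with PECAM1 at 0.16 and DOK1 at -0.46.

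Among 9 other SRC, SYK and TEC family kinases, 4 were higher and 1 lower in Raji and Namalwa than in L428+M, again beside 18.7% and 16.7% of all genes, with a median log2 change of 0.19. FGR, a SRC-family kinase, was higher by 2.85 ± 0.17 and LCK, the SRC-family kinase of T cells, by 1.89 ± 0.13, while YES1 was lower by a log2 change of -3.43 ± 0.16 (SE). The Burkitt lines differed in FGR, which averaged 11.63 in Raji and 8.68 in Namalwa, against 7.30 in L428+M. Of 18 adaptors, exchange factors, lipases and lipid kinases, 10 were higher and 3 lower, among them HCLS1, an actin adaptor, at 3.47 ± 0.13 and LAT2 at 1.72 ± 0.13, and GAB2 at -2.23 ± 0.16 and DAPP1 at -1.42 ± 0.22 (SE). With Raji alone that list had 5 higher and 4 lower, and with Namalwa alone 10 higher and 3 lower.

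In the comparison of L428-PAX5+M with L428+M, 9.72% of all genes were called higher and 6.55% lower, and PAX5, line and medium are confounded. There the coreceptor list had 2 genes higher and 1 lower. CR2, the complement receptor of the coreceptor complex, was higher by 1.80 ± 0.22 log2 units and CD38 by 1.29 ± 0.14, while PTPRC, the phosphatase that primes SRC-family kinases, was lower by a log2 change of -3.18 ± 0.15 (SE, adjusted p = 1.7e-10 in limma), a 9.06-fold difference. The inhibitory list had none higher and 2 lower, PECAM1 at -1.49 and INPP5D, the lipid phosphatase SHIP1, at -0.84. Kinases had 2 higher, FRK at 1.15 and YES1 at 0.87, and 1 higher with dim genes left out. Adaptors had 1 higher, VAV2 at 1.24, and 4 lower, among them GAB2 at -0.95 and DAPP1 at -0.87, and a replicate block made these 3 higher and 5 lower, while the fit with only the compared groups gave 2 and 4. DAPP1 lost its call without replicate 1 or 3 of L428+M or replicate 2 of L428-PAX5+M, at changes from -0.84 to -0.80.

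With 5-aza-dC and TSA in L428, where 4.21% of all genes were called higher and 0.635% lower, 3 of 6 coreceptor genes were higher, among them CR2 by 2.02 ± 0.22 log2 units (SE, adjusted p = 9.66e-06 in limma) and CD38 by 1.86 ± 0.14 (SE, adjusted p = 6.47e-08). The inhibitory list had PECAM1 higher by 1.35 and SIGLEC10 by 0.50, the adaptors GAB2 by 0.69, and the kinases had no gene past the threshold. With the replicate number as a block the inhibitory list had 2 higher and 1 lower and the adaptors 2 higher, and with only the compared groups in the fit the inhibitory list had 1 higher and the adaptors none. SIGLEC10 also lost its call with array medians subtracted and kept it only without replicate 3 of L428+M among these 6 arrays, and GAB2 lost its call without replicate 1 or 3 of L428+M or replicate 1 or 2 of L428+MAT.

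In L428-PAX5, where the same agents left 14.2% of all genes called higher and 19.4% lower, 1 coreceptor gene was lower, CD38 at -0.96 ± 0.14 (SE, adjusted p = 2.69e-05 in limma), and none higher, or 1 lower and 1 higher with the replicate block and without replicate 3 of L428-PAX5+MAT. CD38 was higher with the agents in L428 and lower with them in L428-PAX5, and the interaction of both responses was -2.82 ± 0.19 (SE, adjusted p = 2.98e-07). In the inhibitory list 3 were higher and 4 lower, among them CBLB, a ubiquitin ligase, at 1.16 and PAG1 at 0.53, and INPP5D at -1.40 and CSK, which shuts off SRC-family kinases, at -1.06, and with only the compared groups in the fit 1 was higher and 5 lower and PAG1 lost its call (adjusted p = 0.0609). Kinases had 4 higher and none lower, among them TXK at 1.04 and TEC at 0.99, but 4 higher and 1 lower with the replicate block or without replicate 3 of L428-PAX5+MAT, and 2 higher and 1 lower with dim genes left out. Adaptors had PIK3R1 higher at 0.63 and 6 lower, among them DAPP1 at -1.69 and SOS1 at -1.0, and without replicate 1 of L428-PAX5+M 1 was higher and 3 lower, without replicate 3 of L428-PAX5+MAT 2 and 5.

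**Figure D3:**
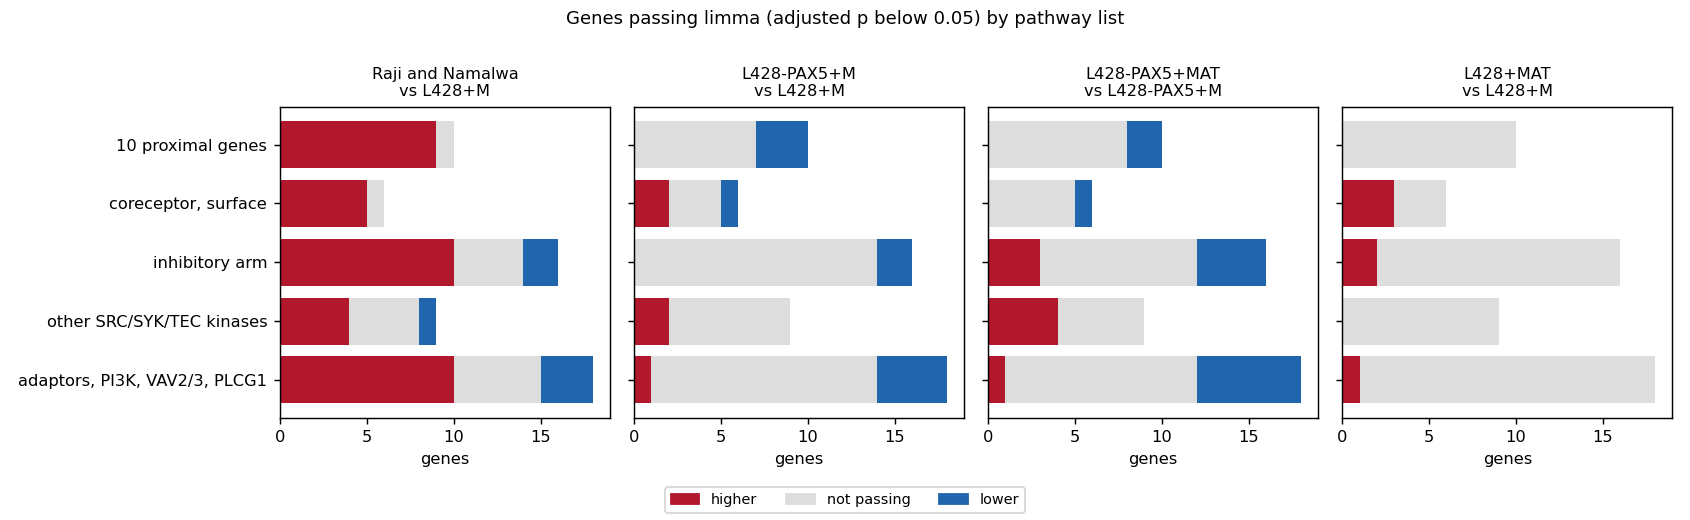
Number of genes called higher (red), not passing (grey) and called lower (blue) by limma, stacked from 0 along the horizontal axis, for the 10 members and the 4 pathway lists in 4 comparisons, each named as the first group against the second. In the mean of Raji and Namalwa against L428+M the red bars are long, with 9 of 10 members higher and none lower. Of all genes, 18.7% are called higher there and 16.7% lower. With Namalwa alone BANK1 is lower, and with Raji alone LYN does not pass. In the other comparisons no member is higher and 3, 2 and 0 are lower, with PLCG2 counted by its brighter probe set. In the same order, 6.55%, 19.4% and 0.635% of all genes are called lower and 9.72%, 14.2% and 4.21% higher. The other PLCG2 probe set was called higher in each of these comparisons, by 0.63, 0.94 and 0.58.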

How the data were processed

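The deposited table holds 1 log2 value per probe set and array. RMA and Partek are the tools the authors used per the submitters' processing notes. The sources used here give neither versions nor order. The 33297 probe sets had no missing values, which ran from 2.24 to 14.64. RMA compresses signals near the floor, so changes of dim genes are understated. The platform annotation gives 19460 probe sets 1 gene symbol, 1754 several and 12083 none. Gene identifiers of 19429 of them matched RefSeq (GRCh38.p14), and no symbol changed. For the 769 genes with more than 1 such probe set, the one with the highest mean over all arrays was kept, which left 18417 genes. The 10 members have 11 such probe sets.

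Changes were estimated with limma 3.58.1 in R 4.3.3 (lmFit and eBayes, no trend) with 1 mean per group over 18 arrays, 12 residual and 6.1 prior degrees of freedom, two-sided, with Benjamini-Hochberg adjustment over all genes of a comparison. The second PLCG2 probe set was tested in a fit over all 19460 probe sets. The procedure was tested on simulated data with independent noise on each array, so that test does not cover deviations shared by replicate number. Python 3.11.15 (numpy 2.4.6, pandas 2.3.3) made the tables and matplotlib 3.10.9 the plots. The number of arrays limits the precision. Standard deviations of the members within groups ran from 0.02 to 0.47 with a median of 0.165, and replicate arrays correlated across all genes at 0.963 or more.

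Groups and replicate numbers come from the labels. For L428-PAX5+MAT the 3 titles read L425-PAX5, and the cell line field, which reads L428-PAX5, was followed. No label says that replicates are separate cultures, and p-values therefore measure only how much these samples vary, which may be technical variation. Whether replicate numbers pair samples was checked by correlating deviations from group means. Every same-numbered pair correlated above 0.1 among the 4 L428 groups (0.273 to 0.655) and between Raji and Namalwa (0.325 to 0.541). Between the Burkitt lines and the L428 groups, replicate 3 correlated at 0.394 to 0.510 in every combination, and replicates 1 and 2 at -0.014 to 0.281. A deviation of replicate 3 was thus shared by all 6 groups, and its cause was not tested. The reported fit holds no term for replicate number. The pairing comes from these values, and a fit with the replicate number as a block is given beside calls and counts it changes by over 1.5 times or in direction.

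The members, gene lists and tests were chosen with earlier results of these data known. Named are all members, PAX5, the 3 genes closest to each member (genes of the Y chromosome left out) and, for each pathway list, up to 2 rises and 2 falls that pass in 4 comparisons. A further pathway list is not reported here. Of 5 myeloid markers measured, 1 was higher and none lower in Raji and Namalwa against L428+M, and of 5 plasma-cell markers 1 was higher and 2 were lower. These counts stand beside 18.7% of all genes called higher and 16.7% lower. Upstream motifs were chosen after the sequences had been read.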

Additional observations from a re-analysis of the deposited data

Results flagged for a closer look

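LYN, BLK and CD38 responded differently to 5-aza-dC and TSA in the lines L428-PAX5 and L428, by limma's interaction test. LYN's interaction, the change in L428-PAX5 minus that in L428, was -1.27 on the log2 scale (adjusted p = 0.00448), with changes of -1.15 in L428-PAX5 and 0.13 in L428. For BLK the interaction was -0.62 (adjusted p = 0.0320), with changes of -0.44 in L428-PAX5 and 0.18 in L428, and it did not pass in 7 of 12 fits with 1 array left out. CD38, a surface gene of the wider pathway, had an interaction of -2.82 (adjusted p = 2.98e-07), with changes of -0.96 in L428-PAX5 and 1.86 in L428. Other pathway genes passed that test too, where 5.64% of all genes were called higher and 10.6% lower. Of 6 coreceptor genes none was higher and 2 lower, CD38 among them, and of 16 inhibitory genes 1 was higher and 3 lower. Of 9 kinases 3 were higher and none lower, and of 18 adaptors 1 was higher and 3 lower. Groups of 3 arrays were not tested for outlying samples.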

How the results depend on the processing

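The fits tried beside the one reported were a replicate block, array medians subtracted, an intensity trend with a robust prior, the mean of all probe sets of a gene, dim genes left out, only the compared groups in the fit, each array left out in turn and, chosen after seeing the data, the second PLCG2 probe set and Raji or Namalwa alone. Over these, 1411 member changes kept their side of the threshold, and their direction where they passed, 54 lost a call, 23 gained one and 4 reversed. Sign changes of values that passed in neither fit were not counted as reversed. For list genes 500 were the same, 18 lost a call and 1 reversed.

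With 1 array left out, the number of members that passed ranged from 1 to 3 in L428-PAX5+M against L428+M, from 1 to 4 in L428-PAX5+MAT against L428-PAX5+M, from 4 to 5 against L428+MAT and from 5 to 6 against L428+M. It was 1 to 2 for the interaction, 0 throughout for L428+MAT against L428+M, 9 throughout for Raji and Namalwa against L428+M, L428-PAX5+M and L428+MAT, 9 to 10 against L428-PAX5+MAT and 3 to 4 for Raji against Namalwa. With only the compared groups in the fit, 1 member passed in L428-PAX5+MAT against L428-PAX5+M, 3 against L428+M and 1 in the interaction, where fewer arrays estimate the spread. Subtracting array medians also left 1 in the interaction. The second PLCG2 probe set gave 1 in L428+MAT against L428+M.

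BANK1 reversed with Namalwa alone, to -0.70 against L428+M and -0.52 against L428+MAT. PLCG2 in Raji and Namalwa against L428-PAX5+MAT reversed to 0.80 with the mean of its probe sets and 1.96 with the second. PECAM1 reversed to 0.16 with Namalwa alone against L428+M, and the cause was not tested. With the replicate number as a block 3 members passed in L428-PAX5+MAT against L428-PAX5+M and 6 against L428+MAT, and no other member call changed. The block raised the genes passing among all 18417 to 1592 (892 without it) in L428+MAT against L428+M and to 4730 (2990 without it) in the interaction. Array medians shifted Raji against Namalwa by 0.10 and Raji and Namalwa against L428+MAT by 0.11. Dim members near the floor limit what can be seen of small changes, and no detection calls were used. In every L428 group CD79A, CD79B, BLNK, SYK, BTK and BANK1 averaged below 7.18, the median of all gene values.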
